A study of Mus musculus with 60 samples.

Results

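The 18 RNA libraries of this mouse hippocampus study were divided by their level of Ttr, the transthyretin gene, into 9 choroid-plexus-rich and 9 choroid-plexus-poor libraries. A library counted as rich when Ttr reached 300 RPKM (reads per kilobase of transcript, scaled for sequencing depth) and as poor below that. The classes were therefore chosen from measured values of the same libraries, so every rich-minus-poor value below is a description and carries no test. The whole series holds 60 samples, the rest being lamin B1 ChIP-seq and ATAC-seq samples that are not used here. The RNA libraries came from frozen hippocampus of 30-week-old mice of the CBA x C57BL/6 background, 9 wild type (WT) and 9 R6/1. R6/1 mice model Huntington's disease through a transgene that holds the first exon of human HTT with a lengthened CAG tract and is expressed in many tissues. The number of animals behind each library are not given in the sources used here, which call the 9 libraries of a genotype independent biological replicates. The rich class held WT replicates 1, 3, 5 and 6 and R6/1 replicates 1, 2, 3, 4 and 8, and the poor class held WT replicates 2, 4, 7, 8 and 9 and R6/1 replicates 5, 6, 7 and 9.

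The choroid plexus is a folded, vascular tissue in the brain ventricles whose epithelial cells secrete cerebrospinal fluid. In each lateral ventricle it lies against the fimbria and the inner face of the hippocampus, so a dissected hippocampus can carry some of it along. Its epithelium makes transthyretin, which binds thyroxine and carries it into the cerebrospinal fluid, at a very high level, together with channels, transporters, carbonic anhydrases and tight-junction proteins that move ions, water and nutrients between blood and fluid. In bulk tissue, fewer cells of a type and less RNA per cell cannot be told apart.

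In the rich libraries Ttr lay between 374.6 and 1696 RPKM with a median of 893.6, and in the poor libraries between 19.0 and 281.9 RPKM with a median of 48.1. The 4 rich WT libraries spanned 555.5 to 1035 RPKM and the 5 rich R6/1 libraries 374.6 to 1696 RPKM. The 5 poor WT libraries spanned 19.0 to 111.6 RPKM and the 4 poor R6/1 libraries 33.4 to 281.9 RPKM. The libraries nearest the threshold were both R6/1, replicate 1 at 374.6 RPKM just inside the rich class and replicate 6 at 281.9 RPKM just outside it. Folr1, the folate receptor of this epithelium, stood at 3.68 RPKM in the former and 1.01 RPKM in the latter, and Sostdc1 at 7.71 and 4.02 RPKM. Ttr took 7519 to 36271 reads of a rich library, 0.0463% to 0.217% of its reads, and 311 to 5324 reads of a poor library, 0.00228% to 0.0352%. The library with the highest level was R6/1 replicate 3, and the lowest was WT replicate 8.

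**Figure D1:**
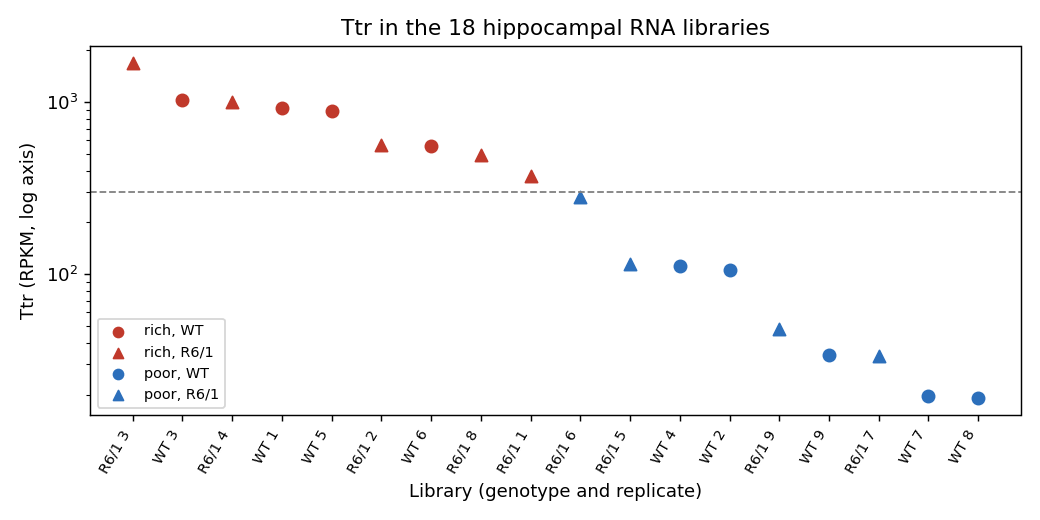
Ttr in RPKM on a log axis for each of the 18 libraries in falling order; colour gives the class, symbol the genotype, and the dashed line the 300 RPKM threshold. Rich libraries run from 374.6 to 1696 RPKM and poor libraries from 19.0 to 281.9 RPKM, with both genotypes in each class.

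Depth did not follow the classes: the reads recovered from the deposited values came to 12299434 to 16736544 a library in the rich class and 12416748 to 16457022 in the poor class. Markers of the labelled tissue were present in every library. The summed level of 8 dentate granule cell genes was 62.2 to 155.0 RPKM in the rich and 61.1 to 145.7 RPKM in the poor libraries, and that of 6 CA1 pyramidal cell genes was 128.4 to 189.1 and 124.2 to 229.7 RPKM. R6/1 replicate 3 had the highest mean of the choroid genes as well as the highest Ttr, and without it 15 genes were counted as higher and the median difference of the choroid lists was 0.77, against 16 and 0.83 with it.

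Of the 14446 genes whose mean reached 0.5 RPKM, 16 (0.111%) were counted as higher in the rich libraries. Such a gene had a rich-minus-poor difference of at least 1 on the log2(RPKM + 0.5) scale, with genotype in the model, and every rich library above every poor library of the same genotype. In order of the difference they were Ttr, Folr1, 1500015O10Rik, Clic6, Sostdc1, Aqp1, Kcnj13, Cldn2, Slc4a5, Enpp2, Wfdc2, Lbp, Steap1, Prr32, Otx2 and Col8a2. By the mirrored criterion 0 genes were lower; no p-value was computed for this contrast with any tool. Of these 16 genes, 13 belong to 4 lists of choroid plexus genes made for this work, covering secreted proteins, transport, epithelial structure, and transcription factors with receptors. The difference reached 1 in 29 genes (0.201%) and fell to -1 or below in 3 (0.0208%), and 28 genes (0.194%) had the rich libraries above the poor ones in both genotypes whatever the size. The difference was under 0.5 in size in 14299 genes (99.0%), and its median over all genes was 0.003. Per the GENCODE annotation of NCBIM37 (mm9), 15 of the 16 genes could be placed, on 12 chromosomes, and 3 of them, among them Kcnj13 with Gigyf2, overlap a gene on the opposite strand. Whether the authors counted reads by strand is not given in the sources used here.

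**Figure D2:**
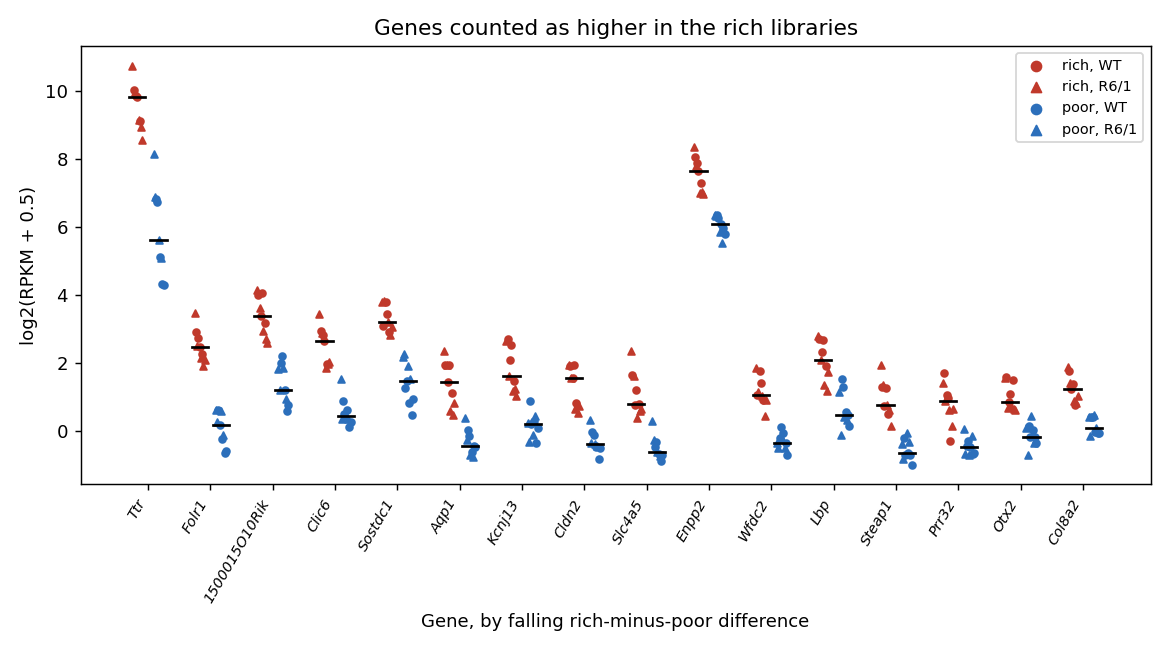
Level of the 16 genes counted as higher, on the log2(RPKM + 0.5) scale, in each rich (red) and poor (blue) library; circles are WT, triangles R6/1 and black bars the medians of 9 libraries. Ttr has the largest difference, 3.65, and Col8a2 the smallest, 1.08.

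The 53 genes of the choroid lists were all in the table and 49 passed the filter on low values; Cldn3, Krt8, Lmx1a and Oca2 did not. Of the 49, 49 had a difference above 0, where 7459 of all genes (51.6%) did, and the median difference was 0.83 against 0.003 over all genes. Under quantile normalization 48 of the 49 were above 0. Without Ttr the median was 0.79. The difference was at least 1 in 18 members, between 0.5 and 1 in 16, and under 0.5 in 15. The lists were written with results of these data known, so these counts describe the lists and support nothing further. The mean log2 level of the 48 tested members other than Ttr was 1.86 to 2.81 in the rich libraries and 1.20 to 1.63 in the poor libraries, with no overlap. It was lowest in WT replicate 8 and highest in R6/1 replicate 3, as for Ttr.

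Secreted proteins had a median of 0.99 over 14 genes, among them Ttr, whose own level set the classes. Ttr was 837 ± 403 RPKM (SD, n = 9) in the rich and 85.4 ± 83.7 RPKM (SD, n = 9) in the poor libraries, a ratio of means of 9.80 and a difference of 3.65 ± 0.45 (SE) on the log2 scale. Enpp2 (chromosome 15, 54670453 to 54751701, minus strand, mm9), which encodes autotaxin, the secreted enzyme that makes lysophosphatidic acid, lay between 124.1 and 322.9 RPKM with a median of 197.0 in the rich libraries and between 45.2 and 81.1 with a median of 67.1 in the poor ones. Its difference was 1.52 ± 0.17 (SE), and unlike Ttr it kept 34.0% of its rich mean in the poor libraries, where Ttr kept 10.2%. 1500015O10Rik, also known as Ecrg4, encodes a secreted peptide precursor. It spanned 5.48 to 16.9 RPKM in the rich and 1.00 to 4.05 RPKM in the poor libraries, a difference of 2.02 ± 0.25 (SE). Sostdc1 (chromosome 12, 37040756 to 37045039, plus strand, mm9), an antagonist of BMP and Wnt signalling, spanned 6.45 to 13.5 RPKM against 0.870 to 4.28 RPKM, a difference of 1.84 ± 0.20 (SE). Enpp2, 1500015O10Rik and Sostdc1 did not overlap between the classes, while for Ttr the threshold itself fixed this.

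Lbp, the lipopolysaccharide-binding protein, was apart within each genotype, with 1.73 to 6.31 RPKM in the rich and 0.412 to 2.36 RPKM in the poor libraries, but 7 rather than 9 rich libraries were above all poor ones. F5, coagulation factor V, differed by 1.45 ± 0.21 (SE) and Kl, which encodes klotho, the co-receptor of a bone-derived fibroblast growth factor, by 1.16 ± 0.16 (SE). Both overlapped within a genotype. Kl was 6.40 RPKM in R6/1 replicate 2 of the rich class and 6.44 RPKM in R6/1 replicate 6 of the poor class. The other members differed less: Ace, the angiotensin-converting enzyme, by 0.83, Mia by 0.74, the growth factor binding protein Igfbp2 by 0.63, Igf2 by 0.49, the growth factor antagonist Wfikkn2 by 0.35 and Bmp6 by 0.28. Bmp6 was 3.62 to 6.76 RPKM in the rich and 2.78 to 4.72 RPKM in the poor libraries, so the classes overlapped.

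Transport genes had a median difference of 0.84 over 18 genes. Folr1 (chromosome 7, 109006845 to 109019302, minus strand, mm9), the receptor through which this epithelium takes up folate, was 3.19 to 10.5 RPKM with a median of 4.99 in the rich libraries and 0.135 to 1.02 RPKM with a median of 0.615 in the poor ones. The lowest rich library thus lay above the highest poor library, and the difference of 2.41 ± 0.21 (SE) was the largest after that of Ttr. Clic6, a chloride intracellular channel family gene (chromosome 16, 92485981 to 92541488, plus strand, mm9), was 3.08 to 10.3 RPKM against 0.577 to 2.33 RPKM, a difference of 1.95 ± 0.22 (SE). Aqp1, the water channel of the fluid-facing membrane (chromosome 6, 55286426 to 55298549, plus strand, mm9), was 0.862 to 4.57 RPKM against 0.0790 to 0.796 RPKM, a difference of 1.76 ± 0.24 (SE). Its ratio of means was 7.63.

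Kcnj13, an inward-rectifier potassium channel, differed by 1.72 ± 0.22 (SE), the sodium bicarbonate cotransporter Slc4a5 by 1.58 ± 0.23 (SE) and the STEAP family member Steap1 by 1.48 ± 0.20 (SE), each with all 9 rich libraries above all 9 poor ones. Kcne2, an accessory potassium channel subunit, differed by 1.28 ± 0.27 (SE) but overlapped, with 0.287 to 3.44 RPKM in the rich and 0 to 0.624 RPKM in the poor libraries. The cation channel Trpv4, at 0.95, and the copper importer Slc31a1, at 0.37, were apart within both genotypes but under 1. The glucose transporter Slc2a12 differed by 0.95, the retinoid transporter Abca4 by 0.73, the monocarboxylate transporter Slc16a8 by 0.68, the carbonic anhydrase Car12 by 0.62, the sulfate transporter Slc13a4 by 0.52, the carbonic anhydrase Car14 by 0.34 and the monoamine transporter Slc29a4 by 0.30. The sodium, potassium and chloride cotransporter Slc12a2 was 17.8 to 20.7 RPKM against 14.1 to 21.0 RPKM, a difference of only 0.16 ± 0.05 (SE).

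Epithelial structure genes had the lowest median of the 4 lists, 0.58 over the 9 that passed the filter. Cldn2, a tight-junction claudin that forms cation-selective pores (chromosome X, 136335367 to 136345925, plus strand, mm9), was 0.927 to 3.32 RPKM with a median of 2.40 in the rich and 0.0621 to 0.738 RPKM with a median of 0.255 in the poor libraries, a difference of 1.62 ± 0.21 (SE). Sulf1, a sulfatase that edits heparan sulfate, was 1.91 to 4.73 RPKM against 0.942 to 1.83 RPKM, and its difference of 0.996 ± 0.095 (SE) fell just short of 1 with all 9 rich libraries above all poor ones. The keratin Krt18 differed by 0.87 and was apart within both genotypes. The collagens Col8a1 and Col9a3 differed by 0.76 and 0.58, the claudin Cldn1 by 0.50, the desmosome-associated Perp by 0.46, the junction protein Cgnl1 by 0.32 and the membrane linker Ezr by 0.13. Ezr was 20.9 to 32.4 RPKM in the rich and 21.2 to 33.1 RPKM in the poor libraries. Krt8 and Cldn3 stayed under the filter, with the highest rich library at 0.982 and 0.524 RPKM.

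Among transcription factors and receptors the median was 0.87 over 8 genes. Otx2, a homeobox factor needed to form and maintain this epithelium (chromosome 14, 49277354 to 49287319, minus strand, mm9), was 1.02 to 2.46 RPKM with a median of 1.29 in the rich and 0.104 to 0.854 RPKM with a median of 0.379 in the poor libraries. Every rich library was above every poor one, and the difference was 1.17 ± 0.16 (SE). Tmem72, a membrane protein gene, differed by 1.44, Calml4, a calmodulin-like gene, by 1.15, the prolactin receptor gene Prlr by 0.89 and Wdr86 by 0.86. Of these, Wdr86 was apart within both genotypes, from 0.502 to 1.44 RPKM against 0.0449 to 0.471 RPKM. The homeobox gene Msx1 differed by 0.34 and Mdfic by 0.39, and both overlapped. Cab39l, a scaffold of the LKB1 kinase complex, was apart within both genotypes at a difference of only 0.28 ± 0.05 (SE), with 12.03 to 15.5 RPKM against 9.76 to 12.4 RPKM. Lmx1a, a factor of the roof plate from which the tissue forms, and Oca2 stayed under the filter, with rich maxima of 0.436 and 1.35 RPKM.

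Promoters of 3 of the genes that moved together are shown, since Otx2 is itself among them and its DNA motif can be looked for. RefSeq promoter windows (GRCm38.p6, 250 bases before to 50 after the start of transcription) matched 10 of the 16 genes by symbol or synonym, with 14 windows. The OTX core TAATCC was searched on both strands, where its reverse is GGATTA. It occurs in the windows of 1 of the 10 genes, at 1 of 4 Otx2 starts, against 8.14% of 27025 genes in the whole table. The capitals mark that match, 211 bases before the start, and the Aqp1 and Kcnj13 windows hold none. The forkhead motif GTAAACA, with reverse TGTTTAC, occurs in 0 of the 10 against 4.05% of all genes. A match is a string of letters and not a measured site. The windows are Otx2 chr14:48665060-48665359 on the minus strand, Aqp1 chr6:55336049-55336348 on the plus strand and Kcnj13 chr1:87394680-87394979 on the minus strand.
Otx2: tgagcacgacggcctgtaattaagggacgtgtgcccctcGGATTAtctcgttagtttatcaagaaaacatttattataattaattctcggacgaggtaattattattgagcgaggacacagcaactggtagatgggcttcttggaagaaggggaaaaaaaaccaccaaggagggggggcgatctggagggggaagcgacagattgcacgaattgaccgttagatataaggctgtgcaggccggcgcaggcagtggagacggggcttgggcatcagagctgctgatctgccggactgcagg
Aqp1: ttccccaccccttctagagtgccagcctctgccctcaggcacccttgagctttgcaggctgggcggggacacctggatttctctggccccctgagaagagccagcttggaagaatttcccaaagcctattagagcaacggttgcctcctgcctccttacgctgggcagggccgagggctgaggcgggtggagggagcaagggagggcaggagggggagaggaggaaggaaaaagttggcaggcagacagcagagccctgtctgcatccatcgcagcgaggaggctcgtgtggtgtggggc
Kcnj13: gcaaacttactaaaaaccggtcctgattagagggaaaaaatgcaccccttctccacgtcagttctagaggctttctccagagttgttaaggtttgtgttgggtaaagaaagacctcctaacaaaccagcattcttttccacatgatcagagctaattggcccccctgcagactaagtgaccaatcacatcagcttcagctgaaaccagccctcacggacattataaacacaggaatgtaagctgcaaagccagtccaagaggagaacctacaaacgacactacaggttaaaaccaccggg

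The 3 counted genes outside the lists were Wfdc2, Prr32 and Col8a2. Wfdc2, a secreted whey-acidic-protein family member of epithelia, was 0.840 to 3.06 RPKM in the rich and 0.106 to 0.564 RPKM in the poor libraries, a difference of 1.51 ± 0.16 (SE). Col8a2, a short-chain collagen, was 1.18 to 3.15 RPKM against 0.401 to 0.875 RPKM, a difference of 1.08 ± 0.15 (SE). Leaving out WT replicate 3 or R6/1 replicate 3 brought the difference of Col8a2 to 0.996 or 0.9997, just under the limit of 1. Prr32 had a mean under 1 RPKM and is named because it was counted, at 1.24 ± 0.21 (SE); WT replicate 6 of the rich class, at 0.312 RPKM, was below R6/1 replicate 6 of the poor class, at 0.525 RPKM.

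How closely a gene tracked Ttr among the rich libraries was described by its level per 1000 RPKM of Ttr. The coefficient of variation of that ratio over the 9 rich libraries was 15.8% for Steap1, 16.2% for Clic6, 16.7% for Enpp2, 19.1% for 1500015O10Rik and 19.9% for Folr1. A steady ratio was not limited to counted genes: it was 16.9% for Prlr, 18.7% for Abca4 and 18.7% for Col8a1. Enpp2 stood at 190 to 331 RPKM per 1000 RPKM of Ttr, a range of less than a doubling, while Ttr itself spanned 374.6 to 1696 RPKM. For Bmp6 the coefficient of variation was 47.4% and for Kcne2 57.3%. Otx2, at 43.6%, was apart between the classes but did not keep a steady ratio to Ttr. The ratios share Ttr as their divisor and are given without a test. They also rest on unlike numbers of reads. The authors' mean normalized read count over all libraries was 15.8 for Steap1, 20.7 for Kcne2 and 40.3 for Otx2, against 6762 for Enpp2. The part of counting noise in the order of these genes was not tested.

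Genes of motile cilia, which mark the ependymal cells that line the ventricles and are also found in choroid epithelium, were the list nearest to the choroid lists. Of 16 listed, 13 were tested and 13 had a difference above 0, with a median of 0.46 and 0 counted as higher. Within genotypes the median was 0.71 in WT and 0.25 in R6/1 libraries. Over all genes 51.6% were above 0 and 0.111% were counted as higher. Tmem212 differed most, by 1.01 ± 0.30 (SE), and spanned 0.829 to 6.18 RPKM in the rich and 0.354 to 2.85 RPKM in the poor libraries, with overlap. Meig1 differed least, by 0.12 ± 0.14 (SE). The summed level of the list was 15.9 to 47.2 RPKM in the rich and 11.99 to 25.8 RPKM in the poor libraries, and its part in the values above was not tested.

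Lists of other cells that surround or fill the plexus did not show such a difference. In the poor libraries the endothelial list already summed to 139.4 to 176.3 RPKM and the microglial list to 127.2 to 196.4 RPKM. A small part carried over with the plexus could thus go unseen. Fibroblast and meningeal genes, which also mark the stroma under the epithelium, had a median of 0.03 over 14 genes, from Col3a1 at -0.16 to Fbln1 at 0.32. Endothelial genes had a median of -0.13 over 11, from the vascular growth factor receptor Flt1 at -0.26 to the glucose transporter Slc2a1 at 0.06. The median was -0.06 over 8 pericyte and smooth muscle genes (Pdgfrb at -0.17 to Acta2 at 0.23), 0.04 over 8 microglial genes (Cx3cr1 at -0.08 to C1qb at 0.34) and -0.10 over the 3 tested border macrophage genes (Cbr2 at -0.18 to Cd163 at -0.03). Of 7 blood genes, Alas2 alone passed the filter, at 0.28 ± 0.17 (SE). None of these members was apart between the classes in the same direction in both genotypes. Over all genes only 0.194% were apart with the rich libraries above and 0.0208% with them below. Finding none among so few members therefore says little about these cells.

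Hippocampal cell lists lay near 0 or shifted by less than the choroid lists. The median was 0.005 over 8 astrocyte genes (Slc1a2 at -0.05 to Gfap at 0.19), 0.03 over 8 oligodendrocyte genes (Mog at -0.01 to Mobp at 0.11), -0.03 over 4 precursor genes (Cspg4 at -0.09 to Olig2 at 0.03) and -0.06 over 8 inhibitory neuron genes (Vip at -0.28 to Cck at 0.10). Dentate granule genes ran from Dsp at -0.11 to C1ql2 at 0.44. CA1 genes had a median of -0.19 over 6 (Fibcd1 the highest, at 0.13), and CA2 and CA3 genes a median of 0.26 over 6 (Rgs14 at 0.01 to Amigo2 at 0.34). Within genotypes the CA1 median was -0.39 in WT and 0.03 in R6/1 libraries. That of CA2 and CA3 genes was 0.41 in WT and 0.15 in R6/1 libraries. The cause of these shifts was not tested. Genes of the thalamus and habenula, neighbours that a dissection can also include, had a median of 0.13 over 11 (Slc17a6 at -0.10 to Zic1 at 0.39). Activity-regulated genes had a median of 0.17 over 10 (Egr2 at 0.001 to Fos at 0.47), with Fos at 4.13 to 30.8 RPKM in the rich and 2.16 to 26.6 RPKM in the poor libraries. Genes that handle thyroid hormone and retinoids, the ligands that transthyretin helps to carry, had a median of 0.05 over 12, from the thyroid hormone receptor Thrb at -0.14 to the retinol transporter Stra6 at 0.43.

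**Figure D3:**
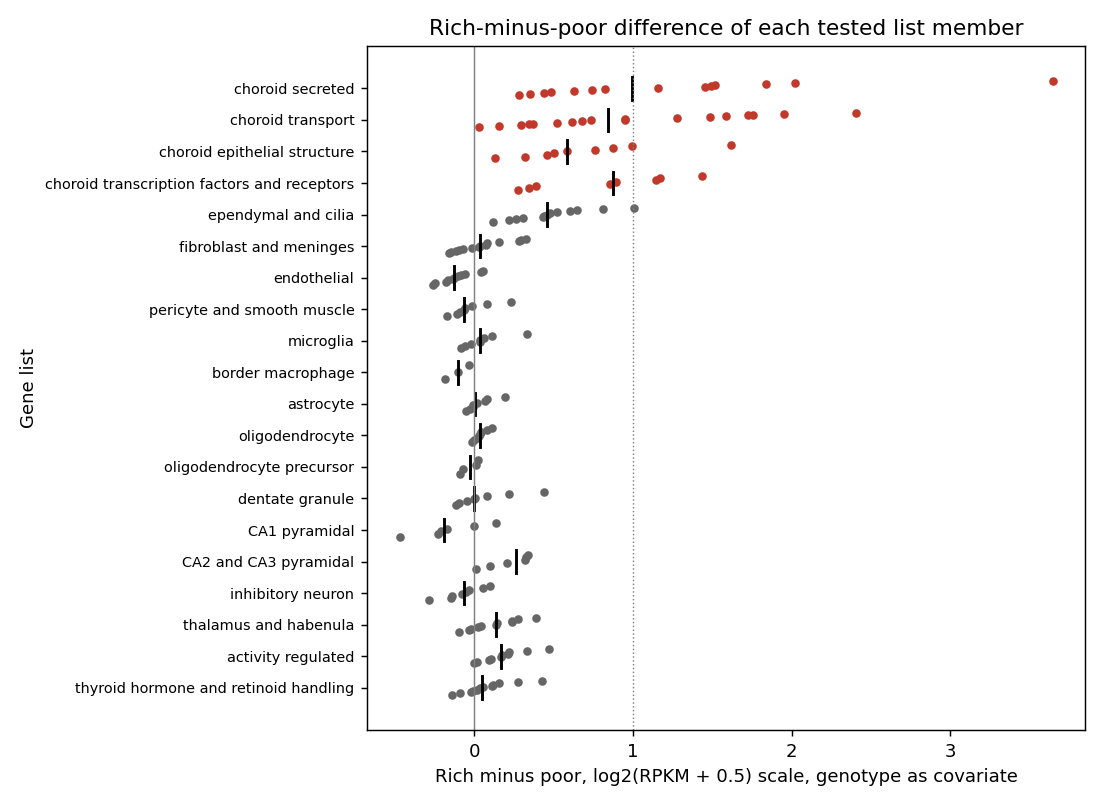
Rich-minus-poor difference on the log2(RPKM + 0.5) scale for each tested member of 20 gene lists, with choroid lists in red, black bars for medians and dotted line at 1. All 49 tested choroid members lie above 0 (48 of 49 under quantile normalization), up to Ttr at 3.65, and the ependymal list has the next highest median, 0.46.

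Several genes with a large difference did not follow Ttr from library to library. Among the 29 genes at 1 or more, 6 belong to the Serpina3 cluster, a family of neighbouring serine protease inhibitor genes that spans chromosome 12 from 105350934 to 105652539 (mm9). They were described after their values were seen, and reads of such close copies may be split between them. Serpina3m differed by 1.96 ± 0.48 (SE) but fell into separate high and low libraries rather than a graded series. It stood between 1.98 and 5.43 RPKM in 8 rich libraries and in WT replicates 7 and 8, which had the lowest Ttr of all. It stood between 0.0401 and 0.117 RPKM in the other 7 poor libraries and in WT replicate 3, which had the second highest Ttr. Of the 7 family members that passed the filter, 6 were higher in those 10 libraries than in each of the other 8, and Serpina3g was not. Serpina3n, an acute-phase gene of reactive astrocytes and the most abundant of them, was 31.5 to 66.1 RPKM in those 10 libraries and 15.2 to 27.0 RPKM in the other 8. In R6/1 libraries alone the family split as Ttr did, and in WT libraries it did not.

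**Figure D4:**
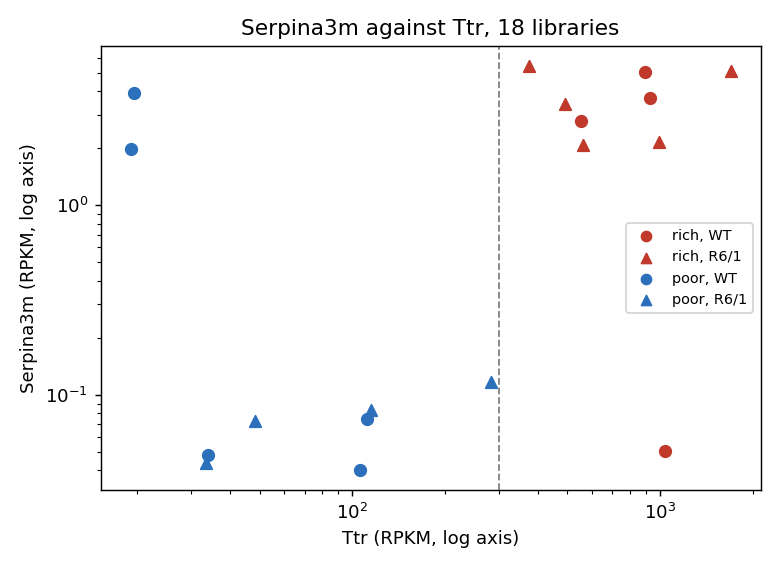
Serpina3m against Ttr in the 18 libraries, both in RPKM on log axes, with the dashed line at 300 RPKM. Serpina3m is at 1.98 RPKM or more in the 2 libraries lowest in Ttr (WT replicates 7 and 8) and at 0.05 RPKM in WT replicate 3, which has 1035 RPKM of Ttr.

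The lowest difference of all genes was that of Pttg1, the securin gene, at -1.58 ± 0.55 (SE). It was 0.146 to 0.291 RPKM in WT replicates 1, 3 and 5 and R6/1 replicate 3, all of the rich class, and 4.45 to 11.0 RPKM in the other 14 libraries, the other 5 rich ones included. The classes thus overlapped, and the difference came from 4 of 9 rich libraries. Mir1982, at -1.04, and Mir6972, at -1.09, were the other genes at -1 or below, and both overlapped. Their mean normalized read counts in the authors' deposited values were only 1.16 and 2.30, so both sat near the counting floor. The rich libraries were below the poor ones within both genotypes in 3 genes (0.0208%), all with small differences: B230209E15Rik at -0.27, Camk2g, a calcium and calmodulin kinase subunit, at -0.15, and Gltscr1l at -0.13. These genes were named after their values were seen.

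No difference in Ttr between the genotypes was detected at the spread of these libraries. WT libraries held 411 ± 439 RPKM (SD, n = 9; lowest 19.0, median 111.6, highest 1035) and R6/1 libraries 511 ± 538 RPKM (SD, n = 9; lowest 33.4, median 374.6, highest 1696). R6/1 minus WT was 0.77 on the log2 scale, with a two-sided exact permutation p of 0.459 over 48620 splits (n = 9 and 9). The rich class held 4 WT and 5 R6/1 libraries. P-values between genotypes measure the spread between these libraries.

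Rich-minus-poor differences were also compared between the genotypes. Ttr differed by 4.25 in WT and 3.04 in R6/1, Folr1 by 2.73 and 2.09, Sostdc1 by 2.31 and 1.36 and Wfdc2 by 1.54 and 1.47. Over all genes 0 had a class-by-genotype interaction at a limma adjusted p under 0.05 (the smallest was 0.606), and 947 (6.56%) had an unadjusted p under 0.05. Of the 49 tested choroid genes 2 did, a share no higher than over all genes. They were Sostdc1 (unadjusted limma p 0.0110) and Msx1 (unadjusted limma p 0.0311). Since Ttr set the classes, these p-values are only a description for genes that follow Ttr. A missed threshold does not show that the genotypes were alike. Both genes were named after their values were seen.

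Genotype itself, which the classes did not use, was tested with and without the class in the model, to see which calls depend on how much choroid plexus RNA a library held. Without it limma called 6980 genes (48.3%) at an adjusted p under 0.05, 3586 higher (24.8%) and 3394 lower (23.5%) in R6/1. With it 7021 (48.6%) were called, 3608 higher (25.0%) and 3413 lower (23.6%). The calls shared 6851 genes, 170 (1.18%) were called only with the class and 129 (0.893%) only without it, and 0 changed direction. With scaling to the total reads of each library, the calls without class were 5113 higher and 2525 lower, and under quantile normalization 4251 and 3045.

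Of the 49 tested choroid genes, 8 were called without the class, 5 higher and 3 lower, and the authors' deposited table likewise holds 8 of the 53 at an adjusted p under 0.05, 5 higher and 3 lower, against 40.4% of all 18395 genes with a value there. With the class 13 were called, 7 higher and 6 lower, all 8 among them. Over all genes 48.3% were called without the class and 48.6% with it. The median SE of the genotype difference over these 49 genes was 0.24 without and 0.16 with the class, against 0.064 and 0.064 over all genes. Most list genes follow Ttr, which set the class, so a smaller SE with it was built in. The added calls rest on that and are no separate finding. The genotype difference of the choroid genes shifted by a median of -0.09 when class entered, and that of all genes by -0.0004.

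The genes called either way include carbonic anhydrases, a transporter and structural proteins. Car12, a membrane carbonic anhydrase, fell in R6/1, from 11.3 ± 4.02 to 4.17 ± 1.97 RPKM (SD, n = 9 each), a log2 difference of -1.35 without class (limma adjusted p 2.83e-05) and -1.42 with it (limma adjusted p 1.29e-06). Ace rose from 4.84 ± 1.94 to 8.59 ± 3.40 RPKM (SD, n = 9 each), by 0.76 without and 0.67 with the class (limma adjusted p 0.00615 and 0.000114). Ezr rose by 0.28 and 0.26, Perp by 0.44 and 0.38, Car14 by 0.31 and 0.27, and Slc12a2 by 0.15 and 0.13. In a leave-one-out over the 18 libraries the calls without class held each time for Car12, Ace, Ezr and Perp, and 6 times for Car14 and for Slc12a2.

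The genes gained with the class were Sulf1, Igfbp2, Cab39l, Sostdc1 and Kl. The WT libraries held 2.74 ± 1.43 RPKM of Sulf1, and the R6/1 libraries 1.74 ± 0.767 RPKM (SD, n = 9 each). Its difference of -0.48 ± 0.24 (SE) without class (limma adjusted p 0.102) became -0.59 ± 0.10 (SE) with it (limma adjusted p 4.39e-05). Within the rich class WT libraries held 3.30 to 4.73 RPKM and R6/1 libraries 1.91 to 3.23 RPKM, and within the poor class 1.42 to 1.83 and 0.942 to 1.27 RPKM, with no overlap in either class. This call held without each of the 18 libraries in turn, at a limma adjusted p of 1.6e-05 to 0.000149, and was lost with the Ttr threshold at 1000 RPKM (limma adjusted p 0.0626). Without class, Sulf1 was called when R6/1 replicate 3 was left out (limma adjusted p 0.0477).

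The other gained calls were close to the threshold. Igfbp2 fell by 0.38 (limma adjusted p 0.0287) and Kl by 0.39 (limma adjusted p 0.0461), and Sostdc1 rose by 0.51 (limma adjusted p 0.0400) and Cab39l by 0.12 (limma adjusted p 0.0387). Their calls were lost without any of 5, 12, 10 and 10 libraries in that order. For Igfbp2 these were WT replicates 1, 3 and 5 and R6/1 replicates 4 and 8 (highest limma adjusted p 0.0706). For Kl they were WT replicates 1, 2, 3, 4, 5 and 8 and R6/1 replicates 1, 2, 5, 7, 8 and 9 (highest 0.0980). For Sostdc1 they were WT replicates 3, 6, 7, 8 and 9 and R6/1 replicates 3, 4, 5, 6 and 9 (highest 0.0881). For Cab39l they were WT replicates 4, 5, 6, 7 and 8 and R6/1 replicates 3, 4, 6, 7 and 9 (highest 0.0853). Whether these differences arose in choroid epithelium or in hippocampal cells was not tested.

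**Figure D5:**
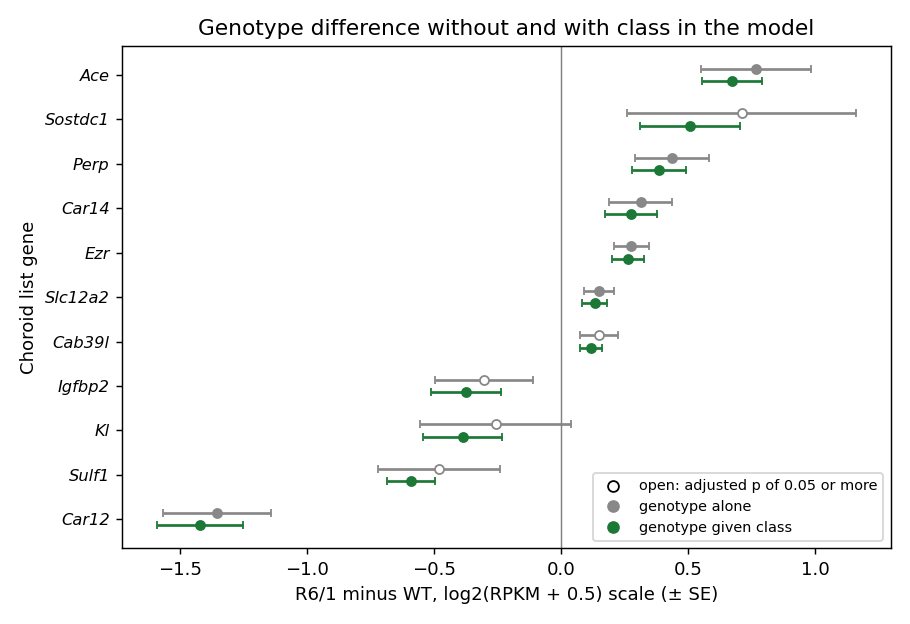
R6/1-minus-WT difference (± SE) on the log2(RPKM + 0.5) scale for 11 of the choroid genes called in either model, with genotype alone (grey) and given class (green); open symbols have a limma adjusted p of 0.05 or more. Sulf1, Igfbp2, Cab39l, Sostdc1 and Kl are open without the class and filled with it, and Car12 has the largest difference, -1.42 given class.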

How the data were processed

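RNA was isolated from frozen hippocampus with a column kit and stranded messenger RNA libraries were sequenced, per the labels' protocols. TopHat, DESeq2 and the mm9 build are named in the submitters' processing notes, without versions. The authors deposited a table of RPKM values for 24508 genes and 18 libraries and a table of their own genotype comparison. That deposited table holds a mean normalized signal, log2 fold changes, standard errors and test statistics as scores, and p-values, per the file headers. Reads were recovered by multiplying RPKM by the ratio of the authors' mean normalized signal to the mean RPKM. The product was then divided by a step fitted to each library. Of the values checked, all but the highest, 99.89% to 99.92% came within 0.05 of a whole number. Totals were 12299434 to 16736544 reads a library. These recovered reads served to state depth and the reads of Ttr. Library sums of the product before that division served for scaling to each library's own read total.

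Values were tested as log2(RPKM + 0.5) over genes whose mean reached 0.5 RPKM, a scale that understates changes of low genes. Models were fitted with limma 3.58.1 (trend, Benjamini-Hochberg adjustment over all 14446 genes, threshold 0.05) in R 4.3.3 and were checked on simulated data. Rich-minus-poor differences are class coefficients with genotype as covariate and carry no p-value, since Ttr of the same libraries set the classes. Genotype was tested alone and given class, and Ttr by genotype with an exact permutation test. The members and gene lists were chosen with earlier results of these data known. Named were the 15 largest and 10 smallest differences among counted genes whose mean reached 1 RPKM, of which there were 14 and 0, all choroid list members, the extremes of each other list and choroid genes whose genotype call changed with class; a few of these genes are not reported here, though the list counts and medians include them. Alternatives were the pseudocount, the filter, centring, quantile normalization, no trend, a replicate block, the Ttr threshold, Ttr as a number, each genotype alone and leaving out each library. Scaling to each library's own read total was added after seeing the data. Same-numbered WT and R6/1 libraries did not deviate together in a way that pairs them.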

Additional observations from a re-analysis of the deposited data

Results flagged for a closer look

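Within each genotype, the highest or lowest of 9 libraries was compared with its nearest neighbour by Dixon's gap test at the 95% level for the named choroid genes, the other counted genes and the tested Serpina3 genes. Of 114 such groups 14 stood out. The usual rate of 1 in 20, or 5.7 groups, assumes independent groups of normally spread values and is no yardstick here. Each group held both classes, and most genes were chosen as choroid or counted genes, so high values in rich libraries were favoured in advance. The genes also share their libraries, so these are not separate events. All 14 were high values in rich libraries, 12 of them in R6/1 replicate 3 and 2 in WT replicate 5.

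In R6/1 replicate 3, which had the highest Ttr of all, these levels stood above the next R6/1 library. Among transport genes they were Folr1 (10.5 RPKM, next 5.13), Kcnj13 (5.68, next 2.53), Kcne2 (3.44, next 0.936), Car12 (8.76, next 5.52), Slc13a4 (7.63, next 4.35) and Trpv4 (2.02, next 1.03). Among structural genes they were Cgnl1 (4.97, next 3.07), Cldn1 (4.37, next 2.41) and Col9a3 (7.50, next 4.94). The others were Otx2 (2.41, next 1.16), Mdfic (2.08, next 1.13) and Wdr86 (1.44, next 0.815). In WT replicate 5, Bmp6 (6.67 RPKM, next 4.62) and Slc13a4 (9.08, next 4.68) stood above the next WT library, although Ttr in that library, 893.6 RPKM, was below that of WT replicates 1 and 3.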

How the results depend on the processing

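The classes rest on a threshold in a graded measure, and the 16 counted genes depend on it. Their number was 8 with a mean of at least 2 RPKM, where the other 8 of the 16 were not tested, 12 with the threshold at 200 RPKM (9 of them among the 16), 8 at 500 RPKM (7 of the 16), 27 at 1000 RPKM (12 of the 16), 3 with log2 Ttr as a number and differences per 2 units of log2 Ttr, 32 in WT libraries alone (16 of the 16), 21 in R6/1 libraries alone (15 of the 16, without Otx2 and with 6 Serpina3 genes) and 15 to 22 when each library was left out in turn. Genes counted as lower numbered 1 at 1000 RPKM (Pttg1), 1 in WT libraries alone (Rxfp1), 4 in R6/1 libraries alone (Cstl1, DQ267100, Ipw, Mir7669) and 0 to 1 without each library. The cause of these changes was not tested. The median of the choroid lists, 0.83, became 1.15 with a pseudocount of 0.1 and 0.77 to 0.90 without each library. With log2 Ttr as a number it was 0.43 per 2 units of log2 Ttr. That step is smaller than the class difference of Ttr, 3.65. This median and the count of 3 genes are thus not on the scale of the others. The interaction had 1 gene without a filter and 0 to 1 without each library.

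Genes called between genotypes ranged from 6156 to 7638 without class and from 6209 to 7742 with it. Ttr by genotype stayed between 0.39 and 1.15, with exact permutation p from 0.270 to 0.701. The tested choroid genes above 0 numbered 48 of 49 under quantile normalization and with the replicate block and 47 of 48 in WT libraries alone. Signs were followed only for the counted genes and the tested choroid genes. Of those named here, 0 differences changed sign. Same-numbered libraries correlated from -0.0533 to 0.237, and 3 of 9 pairs exceeded 0.1. The replicate block gave 14 genes counted as higher, 7133 and 7035 genotype calls without and with class, and a Ttr difference of 0.77 (exact sign-flip permutation p 0.363). The call of Slc12a2 was lost under the block.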

Other observations

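Some genes outside the lists had the rich libraries above the poor ones within both genotypes at a difference under 1; they were picked after their values were seen. Drc7, a component of motile cilia, was 0.838 to 3.60 RPKM in the rich and 0.417 to 0.922 RPKM in the poor libraries, a difference of 0.98 ± 0.20 (SE). Pcolce, which enhances procollagen processing, was 4.60 to 9.87 RPKM against 2.30 to 4.71 RPKM, a difference of 0.72 ± 0.13 (SE). Gpx8, an endoplasmic reticulum peroxidase, differed by 0.54, the sphingomyelin synthase Sgms2 by 0.43, Ggh, which trims folate polyglutamates, by 0.28 and the secretory cargo receptor Surf4 by 0.18. Surf4 was 27.5 to 32.2 RPKM in the rich and 24.0 to 26.9 RPKM in the poor libraries, a small difference with no overlap.

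Ipw, a noncoding transcript of an imprinted region, was 10.8 to 57.9 RPKM in the rich and 20.1 to 51.5 RPKM in the poor libraries, a difference of -0.96 ± 0.24 (SE). WT replicate 6 of the rich class held the highest value. Ly6a, a membrane protein gene of brain endothelium, was 3.40 to 20.9 RPKM in the rich and 9.50 to 13.6 RPKM in the poor libraries, a difference of -0.79 ± 0.26 (SE), so the rich class held both the lowest and the highest libraries.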
